A study of Mus musculus with 72 samples.

Results

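Messenger RNA for the enzymes that make fatty acids and put double bonds into them was followed over 2 days in mouse macrophages. The 10 genes described, Srebf1, Acaca, Acly, Fasn, Scd1, Scd2, Fads1, Fads2, Elovl5 and Me1, were taken by gene symbol from tables of 49568 genes, and all 10 were among the 17903 genes with enough reads to be tested. Total RNA was depleted of ribosomal RNA and sequenced as paired ends from 72 libraries, 1 at each of 24 time points in each of 3 time courses, every 2 h from 16 h to 62 h after a serum shock. All libraries were bone marrow-derived macrophages from male C57BL/6 mice aged 3 to 6 months that carried Per2::Luc, a fusion of the clock protein PER2 to firefly luciferase. The progenitors were grown with M-CSF for 6 days, and the same genotype and treatment held at every time point, so that the only groups compared were times. There was no unshocked control among these libraries. The labels do not say whether the courses came from separate mice or cultures, so the spread between courses may be technical in part. Flooding a culture for a short time with serum in this way is used to bring its circadian clocks into step.

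Fatty acid synthesis turns citrate into palmitate in the cytosol. ATP citrate lyase (Acly) splits citrate to acetyl-CoA, acetyl-CoA carboxylase (Acaca) converts that to malonyl-CoA, and fatty acid synthase (Fasn) builds the chain with NADPH, part of which malic enzyme (Me1) supplies. The stearoyl-CoA desaturases Scd1 and Scd2 make monounsaturated fatty acids, while Fads1, Fads2 and Elovl5 desaturate and lengthen polyunsaturated ones. Srebf1 encodes SREBP-1, a membrane-bound transcription factor that is released by proteolysis when sterols are low and switches on these enzymes, and the liver X receptors raise Srebf1 itself. In macrophages the pathway is known to feed membrane lipids and to shape inflammatory responses.

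The members lie on 3 chromosomes of GRCm38. By the GENCODE M21 annotation, Srebf1, Acaca, Acly and Fasn are on chromosome 11, Scd1, Scd2, Fads1 and Fads2 on chromosome 19, and Elovl5 and Me1 on chromosome 9. Scd1 (chr19:44394455-44407879, minus strand) and Scd2 (chr19:44293674-44306864, plus strand) are neighbouring gene copies. Fads1 (chr19:10182888-10196877, plus strand) and Fads2 (chr19:10062765-10101746, minus strand) lie beside each other as well. Among annotated exons, those of Srebf1 share 109 bases, 1.93% of its exon length, with Rai1 on the other strand, and those of Me1 share 30 bases with an antisense transcript. The labels do not state whether counting used strand, so reads in those few bases cannot be assigned with certainty.

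Promoters were compared because the 10 genes moved together. RefSeq promoter sequences of GRCm38.p6, each 300 bases long and spanning a start site, were matched by symbol for 7 of the 10 members, with 10 promoters in all. Scd1, Scd2 and Fads1 had no entry. Printed are those of Acly and Fasn, from the group that fell earliest, and that of Elovl5, the member promoter that holds an E-box. Each is written 5′ to 3′ along the gene's own strand, and capitals mark every match to 4 motifs on either strand.
Acly, chr11:100527951-100528250, minus strand: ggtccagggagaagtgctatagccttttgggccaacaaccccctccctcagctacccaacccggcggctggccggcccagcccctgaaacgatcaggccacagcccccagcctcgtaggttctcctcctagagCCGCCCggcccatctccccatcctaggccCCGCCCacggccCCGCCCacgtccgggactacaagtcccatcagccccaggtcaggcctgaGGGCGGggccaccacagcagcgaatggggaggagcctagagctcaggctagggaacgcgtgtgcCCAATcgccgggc
Fasn, chr11:120824498-120824797, minus strand: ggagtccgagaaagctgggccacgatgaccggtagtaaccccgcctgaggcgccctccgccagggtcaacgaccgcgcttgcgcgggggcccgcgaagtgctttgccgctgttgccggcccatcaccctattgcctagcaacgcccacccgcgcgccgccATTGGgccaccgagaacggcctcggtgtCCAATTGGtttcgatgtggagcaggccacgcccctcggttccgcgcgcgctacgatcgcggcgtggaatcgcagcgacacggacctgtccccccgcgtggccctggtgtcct
Elovl5, chr9:77917115-77917414, plus strand: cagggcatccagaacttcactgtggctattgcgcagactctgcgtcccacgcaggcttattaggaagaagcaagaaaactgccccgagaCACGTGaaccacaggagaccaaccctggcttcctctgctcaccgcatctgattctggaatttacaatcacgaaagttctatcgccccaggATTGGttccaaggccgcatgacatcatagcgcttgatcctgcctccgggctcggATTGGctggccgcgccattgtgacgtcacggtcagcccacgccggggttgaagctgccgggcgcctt
The motifs were the NF-Y box CCAAT, the GC box GGGCGG, the E-box CACGTG and the sterol regulatory element TCACNCCAC. The pair of NF-Y boxes that read into each other in the Fasn promoter share bases and are printed as 1 run of capitals. An NF-Y box was found in 6 of the 10 member promoters, belonging to Srebf1, Acly, Fasn, Elovl5 and Me1, and in 37.41% of the 32851 RefSeq promoters of the same length. A GC box was found in 5 of 10, against 35.66% of all. The E-box, the site of CLOCK and BMAL1 among other factors, was in 1 of 10, against 7.15% of all, and the sterol regulatory element in 0 of 10, against 1.242% of all. These are letter matches in a short window and say nothing of binding.

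Levels are given as CPM, a gene's reads for every 1000000 reads assigned to genes in that library. Assigned reads ranged from 45309360 to 67839053 per library, with a median of 55040063, at which 1 CPM is 55 reads. The scarcest member, Me1, had at least 24 reads in every library. The macrophage markers Lyz2, Csf1r, Cd68 and Adgre1 were present throughout, and the summed level of 8 macrophage markers ranged from 15710 to 26421 CPM. The 8 adipocyte markers, among them Adipoq and Plin1, summed to at most 0.344 CPM in any library, so the lipogenic transcripts were measured in cultures with next to no adipocyte RNA. The 10 fibroblast and stromal markers summed to between 2.58 and 380.4 CPM, which is low but not constant. The other marker lists were near 0, at no more than 3.31 CPM for 9 neutrophil genes, 5.99 CPM for 7 dendritic cell genes and 0.924 CPM for 6 lymphocyte genes. From bulk RNA, fewer expressing cells and less RNA per cell cannot be told apart. For each library, the root mean square deviation of all genes tested was taken from the median of the other libraries within 2 h, in any course. By this measure 5 libraries stood apart from the rest: course 1 at 40 and 56 h, course 2 at 60 h, and course 3 at 22 and 38 h. Where leaving them out changed a call among the members, both are given.

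Over the 2 days all 10 members fell. The change from 16-20 h to 58-62 h, 3 time points and 9 libraries on each side, ranged from 1.42-fold for Fads1 to 23.2-fold for Fads2. At an adjusted p of 0.05, 10 of 10 members were lower, where 32.3% of all genes tested were lower and 35.5% higher. A fall of at least 2-fold was seen in 8 of 10 members and in 10.2% of all genes. The median log2 change was -1.74 over the members and 0.04 over all genes tested.

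Srebf1, the regulator, stood at 127.7 to 160.7 CPM with a median of 137 at 16-20 h, and at 55.0 to 98.4 CPM with a median of 60.2 at 58-62 h. The fall of 1.01 ± 0.09 on the log2 scale (SE, edgeR adjusted p = 4.14e-14), or 2.01-fold, was thus moderate, and no late library reached the lowest early one. Acly, the citrate-splitting enzyme, went from between 405 and 490 CPM to between 165 and 240 CPM, a fall of 1.19 ± 0.09 (log2, adjusted p = 2.27e-16). Acaca, the carboxylase, went from between 56.3 and 68.7 CPM to between 21.6 and 38.8 CPM, a fall of 1.06 ± 0.11 (adjusted p = 5.93e-12). The levels of both did not overlap between early and late libraries.

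Fasn, the synthase, fell further. Its level was 231 to 358 CPM early, median 267, and 29.7 to 133 CPM late, median 40.9, a change of -2.37 ± 0.27 (log2, adjusted p = 2.75e-11) or 5.16-fold. Me1, the NADPH source, fell 4.87-fold from a low level of 2.92 to 4.93 CPM to 0.431 to 0.95 CPM (log2 change -2.29 ± 0.18, adjusted p = 2.12e-16). Neither gene's early and late libraries overlapped.

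The desaturases held both the largest and the smallest fall. Fads2, which makes the first desaturation of the polyunsaturated series, went from 43.3 to 83.8 CPM, median 55.6, to 0.981 to 11.0 CPM, median 1.58, a change of -4.53 ± 0.35 (log2, adjusted p = 1.34e-16). Its gene neighbour Fads1, which acts later in the same series, went from 149 to 220 CPM, median 174, to 102 to 129 CPM, median 117, a change of -0.50 ± 0.06 (adjusted p = 6.57e-11). Fads1 therefore fell 1.42-fold beside 23.2-fold for Fads2. The Fads1 groups stood apart in plain CPM and overlapped on the scale with TMM library sizes.

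Scd2, the most abundant member, went from 556 to 1254 CPM, median 907, to 33.5 to 383 CPM, median 54.3, a change of -3.37 ± 0.30 (log2, adjusted p = 2.23e-14). Scd1 went from 23.7 to 122 CPM, median 51.2, to 1.72 to 38.4 CPM, median 2.91, a change of -3.35 ± 0.42 (adjusted p = 8.13e-10). The early and late Scd1 libraries overlapped because of course 2 at 60 h, whose 38.4 CPM stood between 2.24 and 3.21 CPM in the libraries of the same course 2 h before and after. Without course 2 the log2 changes were -4.13 for Scd1 and -3.98 for Scd2, and without the 5 libraries that stood apart they were -3.93 and -3.82. Elovl5, the elongase that works with the Fads enzymes, fell 1.93-fold from between 92.3 and 112 CPM to between 43.0 and 64.1 CPM (log2 change -0.95 ± 0.07, adjusted p = 1.04e-16). With TMM library sizes, the late libraries all lay below the early ones for 8 of 10 members, the exceptions being Scd1 and Fads1, and for 14.7% of all genes tested.

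Per kilobase of exon, the order of the levels changed with time. At 16-20 h Scd2 led at 167 ± 27.4 CPM per kb (SD, n = 3 courses), followed by Acly at 82.7 ± 3.94 and Fads1 at 37.2 ± 2.54. Elovl5 at 29.0 ± 1.08, Fasn at 25.9 ± 3.42 and Srebf1 at 24.9 ± 1.92 CPM per kb came next, each within the spread of its neighbour. Fads2 at 17.6 ± 2.97 and Scd1 at 12.1 ± 4.97 did not differ beyond their spread either, and Acaca at 3.67 ± 0.244 and Me1 at 0.943 ± 0.135 CPM per kb were lowest. At 58-62 h Acly led at 33.6 ± 2.84 CPM per kb, ahead of Fads1 at 24.3 ± 0.423. Scd2, at 17.4 ± 11.8, could no longer be told from either Fads1 or Elovl5 (13.9 ± 1.04) by its spread. Without the course 2 library at 60 h Scd2 was at 10.8 ± 3.04 CPM per kb, below Fads1 at 24.0 ± 0.537 beyond their spread and within reach of Elovl5 at 13.4 ± 0.379. Fads2 had dropped to 0.828 ± 0.504 CPM per kb.

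**Figure D1:**
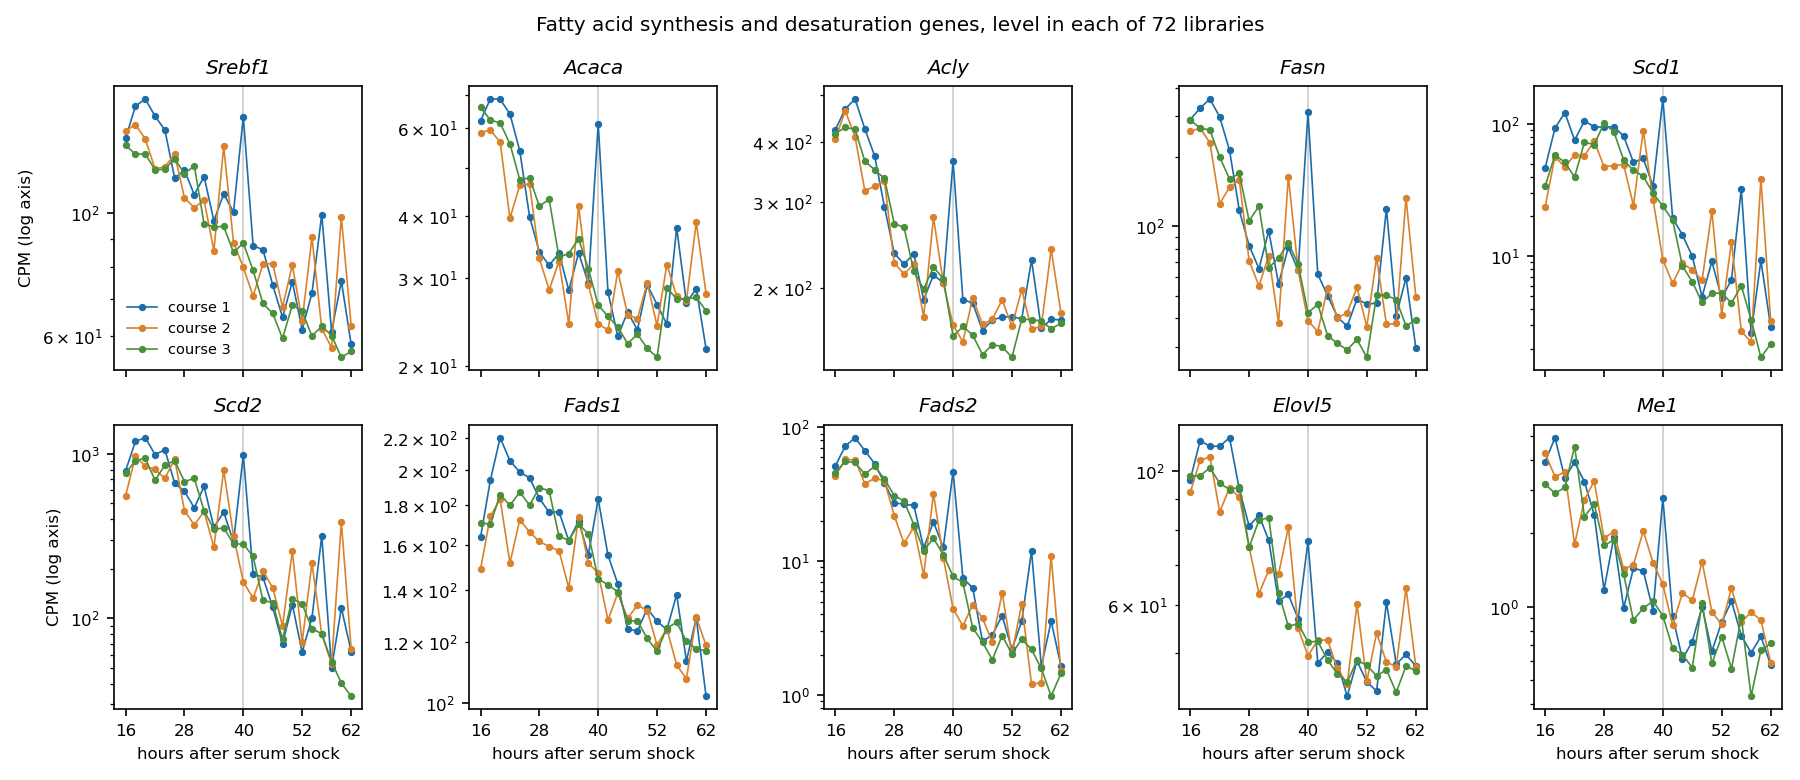
Level of each of the 10 genes in CPM (log axis) by hours after serum shock, 1 line per course and 1 point per library, with a grey line at 40 h. All 10 fell over the 2 days, and the course 1 point at 40 h stands above its neighbours, for Scd1 at 154 CPM.

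The members passed the threshold at different steps, though a difference in timing between genes has no test of its own here. Levels were compared between consecutive windows of 3 time points, 9 libraries each, so that each step shares a window with the next. From 16-20 h to 22-26 h, 3 of 10 members were lower, Acaca, Acly and Fasn, where 17.5% of all genes were. Fasn changed by -0.69 ± 0.25 (log2, SE, adjusted p = 0.0301), Acaca by -0.35 ± 0.11 (adjusted p = 0.0114) and Acly by -0.33 ± 0.09 (adjusted p = 0.00451). These are the enzymes of palmitate synthesis itself. Leaving out course 2 or course 3 left 1 of these calls.

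From 22-26 h to 28-32 h, 6 of 10 members fell, against 17.9% of all genes. Fasn changed by a further -1.05 ± 0.26 (adjusted p = 0.000933), Acly by -0.52 ± 0.09 (adjusted p = 1.25e-05) and Acaca by -0.46 ± 0.11 (adjusted p = 0.000985). Fads2, Me1 and Elovl5 joined them in this step. Fads2 changed by -0.94 ± 0.30 (adjusted p = 0.0109), Me1 by -0.87 ± 0.17 (adjusted p = 6.67e-05) and Elovl5 by -0.30 ± 0.07 (adjusted p = 0.00107). Scd2 missed the threshold at -0.63 ± 0.28 (adjusted p = 0.0732), Srebf1 stood at -0.16 ± 0.09 (adjusted p = 0.165), and Scd1 and Fads1 at 0.07 ± 0.37 and -0.04 ± 0.06. Without the 5 libraries that stood apart Scd2 passed at -0.67 (adjusted p = 0.00472) and Srebf1 at -0.19 (adjusted p = 0.0122). Scd2 also passed without the course 1 library at 40 h (adjusted p = 0.0474), so the calls of this step do not set Scd2 and Srebf1 apart from the earlier genes.

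By 28-32 h the palmitate enzymes had completed most of their log2 fall, 76.5% for Acaca, 73.5% for Fasn and 71.6% for Acly. Me1 had completed 50.0% and Elovl5 38.7%. Srebf1, at 29.8%, Fads2, at 27.6%, and Scd2, at 21%, were further behind. Fads1, at 0.1%, was at its starting level, and Scd1 stood above its starting level, at a median of 80.8 CPM against 51.2 CPM at 16-20 h, a difference of 0.42 on the log2 scale that has no test of its own here. Most of that rise was in course 3, whose window mean went from 47.8 to 80.5 CPM. Those of courses 1 and 2 went from 87.0 to 90.1 and from 42.5 to 48.4 CPM. The regulator's transcript thus ran behind those of the 3 palmitate enzymes in this measure, which is a description of transcript levels and not of SREBP-1 protein.

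**Figure D2:**
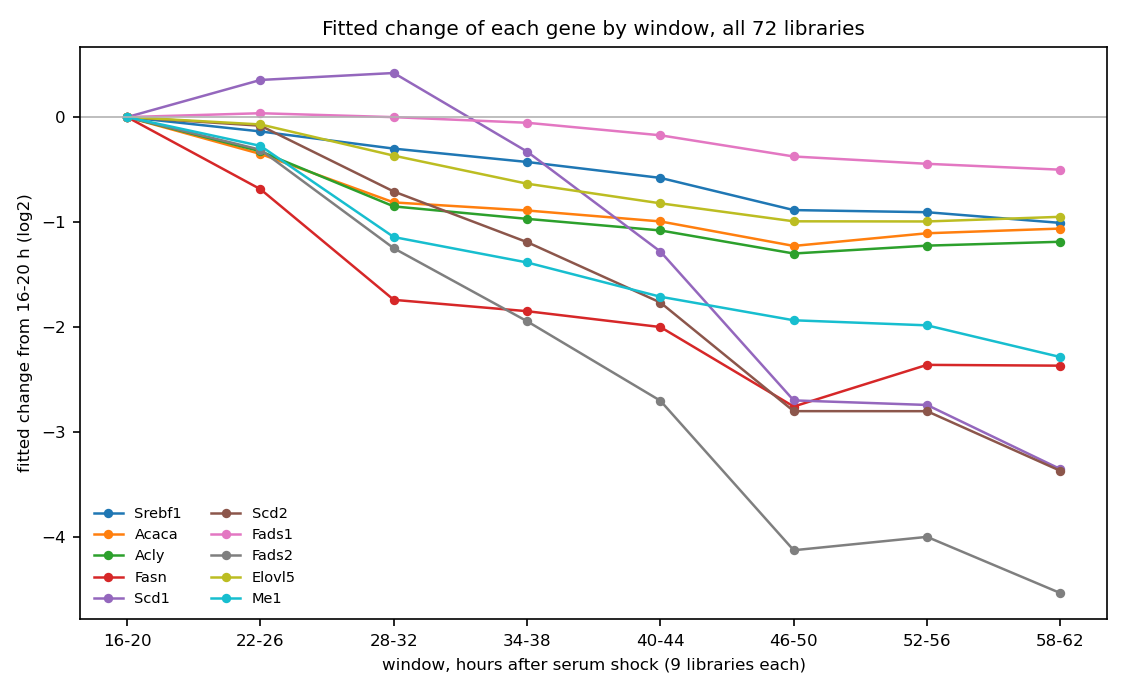
Fitted log2 change of each gene from its 16-20 h level in each window of 3 time points (9 libraries per point, all 72 libraries in 1 fit). Acaca, Acly and Fasn had most of their fall by 28-32 h, when Scd1 stood 0.42 above its starting level, and Fads2 ended lowest at -4.53.

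A midpoint time was read from each course as the first time at which a running median of log2 CPM over 3 points fell below the middle between its 16-20 h mean and its lowest window mean. Acaca came first at 28.7 ± 3.06 h (SD, n = 3 courses), with Acly and Fasn both at 29.3 ± 2.31 h. Me1 at 32 ± 2 h and Elovl5 at 32.7 ± 2.31 h followed. Srebf1 and Fads2, both at 39.3 ± 3.06 h, Scd2 at 42 ± 2 h, and Scd1 at 42.7 ± 2.31 h and Fads1 at 42.7 ± 1.15 h were latest. Neighbours in this order lay closer than the sum of their SDs, apart from the gap between Elovl5 and the pair of Srebf1 and Fads2. Without the running median Srebf1 came at 35.3 ± 2.31 h and was no longer separated from Elovl5. On the linear CPM scale, which weights the early part of a large fall, the midpoints of Fads2 and Scd2 moved forward to 29.3 ± 2.31 h and 30.7 ± 2.31 h, and those of Srebf1 and Scd1 to 34.7 ± 4.16 h and 40 h. Scd1 and Fads1 were late on both scales, and the 3 palmitate enzymes early on both.

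The steps into and out of 40-44 h depended on 1 library, course 1 at 40 h. From 28-32 h to 34-38 h only Elovl5 passed the threshold among the members (log2 change -0.27 ± 0.07, adjusted p = 0.0156), 1 of 10 against 4.5% of all genes. Fads2 passed as well without the 5 libraries that stood apart (-0.70, adjusted p = 0.00863). Elovl5 did not pass without course 1 (-0.21, adjusted p = 0.321) or without course 3 (-0.19, adjusted p = 0.616). With all libraries, 0 of 10 members fell from 34-38 h to 40-44 h by edgeR's quasi-likelihood test, against 4.45% of all genes, with 5 at an unadjusted p under 0.05 and 0 by DESeq2. From 40-44 h to 46-50 h, 4 of 10 fell, Scd1, Scd2, Fads1 and Fads2, against 2.38% of all genes. Without the course 1 library at 40 h these counts became 9 of 10, all but Fads1, against 5.72% of all genes, and 0 of 10, against 1.83%. In that fit Scd1 fell by 1.58 ± 0.37 (log2, adjusted p = 0.00241), Fads2 by 1.32 ± 0.28 (adjusted p = 0.000814) and Scd2 by 0.93 ± 0.27 (adjusted p = 0.0186) between 34-38 h and 40-44 h. After 34-38 h, the called step of these desaturases therefore came 1 window earlier without that library.

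After 46-50 h no member passed the threshold in either step, which does not show that levels held steady. The share of the log2 fall completed by 46-50 h ran from 74.9% for Fads1, through 80.5% for Scd1, to 116% for Fasn. From 46-50 h to 58-62 h the median of Scd2 went from 121 to 54.3 CPM, while those of Acaca, Acly, Fasn and Elovl5 did not drop. Course 1 at 56 h and course 2 at 60 h, which stood apart, lie in these windows. By edgeR 0 of 10 passed the threshold from 46-50 h to 52-56 h, where 0.497% of all genes were lower, with 0 members at an unadjusted p under 0.05 and 0 by DESeq2. From 52-56 h to 58-62 h it was again 0 of 10, against 0.0279% of all genes, with Scd2 at an unadjusted p under 0.05 and 0 by DESeq2. No member was higher in any of the 7 steps, where in order 16.5%, 17.5%, 1.79%, 1.59%, 0.447%, 0.279% and 0.0% of all genes were. The fitted log2 changes in the last step lay between -0.61 ± 0.41 for Scd1 and 0.04 ± 0.11 for Acaca.

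Windows a full day apart were compared next, which hold the same hours of a 24 h cycle counted from the shock. The period of these cultures was not measured here. Between 16-20 h and 40-44 h, 10 of 10 members were lower, against 31.6% of all genes (34.2% were higher), with log2 changes from -0.17 ± 0.06 for Fads1 (adjusted p = 0.00743) to -2.70 ± 0.32 for Fads2 (adjusted p = 1.1e-10). Between 34-38 h and 58-62 h, 7 of 10 were lower, against 20.6% of all genes, and 0 were higher, against 19.7%. Scd1 (-3.02 ± 0.42, adjusted p = 4.48e-08), Fads2 (-2.59 ± 0.34, adjusted p = 8.72e-09) and Scd2 (-2.18 ± 0.29, adjusted p = 1.52e-08) led this second-day fall. The 3 that did not pass were the palmitate enzymes Acaca at -0.17 ± 0.11, Acly at -0.22 ± 0.09 and Fasn at -0.52 ± 0.25. Without the course 1 library at 40 h Acly and Fasn passed as well, at adjusted p values of 0.00873 and 0.031 with the same log2 changes. Without the 5 libraries that stood apart all 3 palmitate enzymes passed, Acly at -0.29 (adjusted p = 5.84e-05), Fasn at -0.75 (adjusted p = 0.000451) and Acaca at -0.23 (adjusted p = 0.0307). The pairs of windows share the step from 34-38 h to 40-44 h. By 34-38 h the palmitate enzymes had completed 78.1% to 83.8% of their log2 fall, and Scd1 9.8%.

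A 24 h cosine on top of a straight drift was called for 0 of 10 members by edgeR, where 7.56% of all genes were called, with Fasn and Scd1 at an unadjusted p under 0.05. Scd1 came nearest, with a fitted amplitude of 0.67 on the log2 scale and a peak at 9.99 h of the 24 h cycle counted from the shock (adjusted p = 0.0598). It was the 1 member that DESeq2 called (adjusted p = 0.0317). By edgeR it also passed without the course 1 library at 40 h (adjusted p = 0.0087), without all 40 h libraries (0.00898) and without the 5 libraries that stood apart (0.00573). With the course as a replicate block it passed as well (0.0386). It did not pass with a quadratic drift (0.0514) or a spline drift (0.303). With DESeq2 size factors (0.0623), library size alone (0.07) or no filter (0.0702) it did not pass either, nor without course 1 (0.166), course 2 (0.205) or course 3 (0.288). Whether the Scd1 curve is a rhythm or a late fall after an early plateau cannot be told from 2 cycles of a falling signal.

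The 3 courses fell by unlike amounts, though no member passed the test of that difference. In the overall contrast, course 2 had the smallest fall of every member. Scd1 changed by -4.02 in course 1, -1.29 in course 2 and -4.27 in course 3 on the log2 scale, and Scd2 by -3.73, -2.0 and -4.30. The edgeR test of a difference between courses called 0 of 10 members, against 0.0279% of all genes, and DESeq2 called 0. By edgeR, Scd1 (adjusted p = 0.322) and Scd2 (adjusted p = 0.341) were the 2 members at an unadjusted p under 0.05. The course 2 library at 60 h is 1 of the 3 late time points in each of these course 2 values. As a difference of mean log2 CPM, the course 2 change of Scd1 was -2.61 with that library and -3.89 without it, beside -4.29 in course 1 and -4.33 in course 3. That of Scd2 was -2.81 with it and -3.71 without it, beside -3.89 and -4.38. Without that library course 2 no longer had the smallest fall of Srebf1, Fads1 and Fads2, and still had that of the other members. Fads2 then changed by -5.26 in course 2, beside -5.00 in course 1 and -5.31 in course 3.

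At 40 h the 3 courses differed widely. Fasn stood at 312 CPM in course 1, 38.9 CPM in course 2 and 42.1 CPM in course 3. Scd1 stood at 154, 9.38 and 23.9 CPM, and Scd2 at 985, 166 and 283 CPM. Fads2 was at 46.8 CPM in course 1 and at 4.41 and 7.70 CPM in the others. Course 1 was high for all 10 genes, and courses 2 and 3 lay close together except in Scd1, Scd2 and Fads2, where course 3 was the higher of the pair.

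The course 1 levels at 40 h stood above those on both sides. Fasn read 64.5, 312 and 62.0 CPM at 38, 40 and 42 h in that course, 4.94-fold above the mean log2 level of its neighbours. Scd1, Scd2 and Fads2 were lower at 42 h than at 38 h in that course, at 19.4 against 33.9 CPM, 186 against 291 CPM and 7.5 against 12.7 CPM. Against the mean log2 level of both sides, Scd1 was 6.02-fold above, Fads2 4.80-fold, Scd2 4.23-fold, Me1 2.98-fold and Acaca 2.13-fold. The others were less far above, Acly 1.85-fold, Srebf1 1.59-fold, Elovl5 1.46-fold and Fads1 1.18-fold. These 6 of 10 members past 2-fold compare with 4.84% of all genes that were above their neighbours by that much and 8.02% that were below. In course 2 the same log2 difference ran from -0.46 to 0.13 over the members, and in course 3 from -0.41 to 0.12, so neither course stood out at 40 h as course 1 did.

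**Figure D3:**
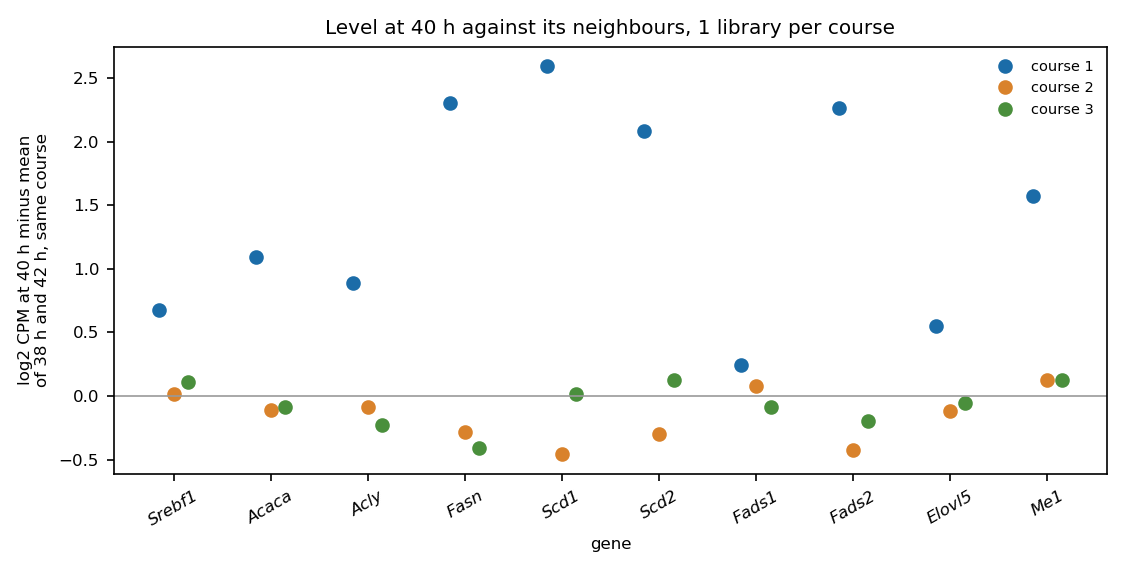
Log2 CPM at 40 h minus the mean of 38 h and 42 h in the same course, for each gene and course (1 library per point). Course 1 lies above 0 for all 10 genes, up to 2.59 for Scd1, while courses 2 and 3 lie between -0.46 and 0.13.

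At 40 h the course 1 library was back near the levels of the first time points for several members. It lay within the range of the 9 libraries at 16-20 h for Srebf1, Acaca, Fasn, Scd2, Fads1 and Fads2. For Fads1 this shows no return, as course 1 at 38 and 42 h, at 155.3 and 155.0 CPM, lay within its range of 149 to 220 CPM too. The 40 h library was below the 16-20 h range for Acly, Elovl5 and Me1, and above it for Scd1, whose 154 CPM was the highest of all 72 libraries. The SD of log2 CPM over courses was 1.70 for Fasn at 40 h, against a median of 0.35 at the other time points, and 2.06 against 0.47 for Scd1. In plain CPM the SD was highest at 40 h for 7 of 10 members, the others being second to 60 h for Scd1 and Scd2 and to 22 h for Fads1. With TMM library sizes it was highest there for 4 of 10, Acaca, Acly, Fasn and Me1, and for 16.8% of all genes. As a mean of 3 courses the difference did not pass: 40 h against 38 and 42 h called 0 of 10 members and 0.0% of all genes higher by edgeR, with 6 members and 880 genes at an unadjusted p under 0.05, and 0 members and 1 gene by DESeq2.

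Other genes moved in the same library. Of 18 genes of cholesterol synthesis, the other branch of SREBP targets, 12 were more than 2-fold above their 38 and 42 h neighbours in course 1 at 40 h, with a median log2 difference of 1.21. Srebf2 and Insig1 were above by 0.42 and 0.87 on the same scale. The efflux targets were mixed, with Abca1 at -1.02 and Abcg1 at 1.02, and a median of 0.48 over the 6. Of the 8 macrophage markers, 3 were more than 2-fold below, and their sum of 15710 CPM was the lowest of all 72 libraries, against 23282 and 23439 CPM at 38 and 42 h. The 10 stromal markers summed to 16.5 CPM, against 68.7 and 123 CPM at those times, with 7 of 8 tested ones more than 2-fold below and Col1a1 at 3.30 CPM. Their part in the result was not tested. The adipocyte markers summed to 0.0363 CPM in that library, and to between 0 and 0.344 CPM over all 72 libraries. The library had 55112971 assigned reads, where the median of all libraries was 55040063.

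Single libraries at other times were high as well. Fasn, Scd1, Scd2 and Fads2 were each more than 2-fold above the mean of the libraries 2 h before and after in course 1 at 56 h, course 2 at 36 h and course 2 at 60 h. In course 1 Scd2 read 100.5, 316 and 49.8 CPM at 54, 56 and 58 h. In course 2 Fads2 read 1.23, 11.0 and 1.5 CPM at 58, 60 and 62 h. Of the 72 libraries, 65 had no member more than 2-fold above its neighbours, 3 had 3 members and 4 had 4 or more. Of the 18 cholesterol genes, 14 were above by that much at 56 h in course 1, 6 at 36 h in course 2 and 14 at 60 h in course 2. Of all genes tested, 4.63%, 3.66% and 4.99% were above by that much in these libraries, and 8.56%, 3.02% and 12.7% were below. Stromal markers were low in the first and last of these, 8 of 8 tested ones by more than 2-fold, and 0 of 8 were in course 2 at 36 h, where 4 members were high. Their part was not tested beyond these counts.

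Members resembled each other over time. Over the 24 time-point means the Pearson correlation of log2 CPM between 2 members ranged from 0.72 for Acaca with Fads1 to 0.997 for Acaca with Fasn, with a median of 0.93 over the 45 pairs. All share the same libraries and the same downward drift, so these values are a description. Fads2 and Srebf1 were nearest to the mean of the other members, at 0.996 and 0.993, and Acaca was furthest at 0.902. Of 9371 other genes at a mean of at least 5 CPM, the closest to the mean of the members were Mvk at 0.99, Atg9b, Hsd17b10, Tm7sf2, Tkt, Lss, Slc25a1 and Nsdhl. Mvk, Lss, Tm7sf2 and Nsdhl act in cholesterol synthesis, Slc25a1 exports citrate from mitochondria and Tkt is transketolase. Closest to Srebf1 alone were Srebf2 at 0.99, its paralog for the sterol branch, with Atg9b, Mvk and Slc27a1 among the next. Mvk fell from 48.9 ± 3.85 to 8.67 ± 1.12 CPM and Srebf2 from 204 ± 15.2 to 74.4 ± 12.7 CPM (SD, n = 3 courses).

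The wider pathway moved unevenly in the overall contrast, in which 32.3% of all genes tested were lower and 35.5% higher. Of the 8 genes that escort and process SREBPs, 4 were lower and 4 higher: Insig1, the sterol-sensitive retention protein and itself an SREBP target, changed by -2.28 ± 0.17 (log2, SE) and Srebf2 by -1.35 ± 0.12, while the ubiquitin ligase Rnf139 rose by 0.31 ± 0.04. Of 14 other regulators of lipogenesis 3 fell and 5 rose, shares no larger than or close to those of all genes. Mid1ip1, which activates acetyl-CoA carboxylase, changed by -1.05 ± 0.12, and Lpin1, Pparg and Usf1 rose by 0.79 ± 0.09, 0.79 ± 0.15 and 0.73 ± 0.08.

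Several genes listed with the supply of carbon and reducing power fell. Of the 8 genes listed with citrate and acetyl-CoA supply 6 fell and 1 rose. Those that fell include the acetyl-CoA synthetase Acss2 at -1.18 ± 0.07 and the citrate carrier Slc25a1 at -1.17 ± 0.07. The largest fall in the list was that of Slc16a3 at -1.64 ± 0.20, which as a lactate exporter does not itself supply either. The pyruvate carrier subunit Mpc1 rose by 0.87 ± 0.08. Of the 6 genes listed with NADPH supply 3 fell and 1 rose. The pentose phosphate enzymes Tkt and Taldo1 changed by -1.27 ± 0.07 and -0.85 ± 0.06 and the folate enzyme Mthfd1 by -1.25 ± 0.12, while Idh1 rose by 0.51 ± 0.07. The other 2, G6pdx and Pgd, did not pass, so a fall of the list as a whole was not shown.

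Most of the elongation cycle outside the members fell. Of 9 tested genes of the elongation cycle 7 fell and 1 rose, with the palmitate elongase Elovl6 at -2.50 ± 0.15, Elovl7 at -1.63 ± 0.30, the ketoreductase Hsd17b12 at -1.45 ± 0.09 and the dehydratase Hacd4 at 1.05 ± 0.09. Of 5 other desaturases 2 fell, Scd4 at -2.19 ± 0.39 and Fads3 at -0.84 ± 0.14, and 3 did not pass, a share near that of all genes. Scd4 stood at only 0.587 ± 0.0669 CPM at 16-20 h, and reads of the Scd copies may be shared. Among 10 acyl-CoA synthetases and glycerolipid enzymes 5 fell and 3 rose, with Acsl3 at -1.57 ± 0.13, Acsl5 at -0.94 ± 0.07, Acsl4 at -0.91 ± 0.06 and Lpcat3 at -0.64 ± 0.08. Of 7 genes of malonyl-CoA turnover and the mitochondrial synthase 1 fell, Mecr at -0.52 ± 0.06, and 2 rose, Oxsm at 0.37 ± 0.05 and Mlycd at 0.27 ± 0.04.

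Cholesterol synthesis fell and cholesterol efflux rose. Of the 18 cholesterol genes 17 fell and 1 rose, with a median of -2.21, led by Idi1 at -3.13 ± 0.26, Fdps at -3.11 ± 0.34 and Lss at -3.00 ± 0.26. Of 6 liver X receptor targets of efflux 5 rose and none fell. The transporter Abca1 rose by 2.48 ± 0.16, from 244 ± 18.8 to 1280.2 ± 187 CPM, Apoe by 1.82 ± 0.18, Abcg1 by 1.21 ± 0.15 and Mylip by 1.12 ± 0.09. Srebf1, which these receptors are known to raise, fell over the same windows. Of 15 genes of mitochondrial fatty acid oxidation 4 fell and 5 rose, shares near or below those of all genes, with Cpt1a, the entry enzyme, at 0.76 ± 0.11, Hadh at -0.47 ± 0.05, Slc25a20 at 0.36 ± 0.07 and Acads at 0.27 ± 0.05. The adjusted p values of the genes named from these lists were at most 3.03e-05, for Slc25a20.

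Some genes of the marker lists were called over the same windows, where 32.3% of all genes tested were lower and 35.5% higher. Of 8 macrophage markers 2 rose and 2 fell, shares below those of all genes. They were Csf1r, the M-CSF receptor, at 1.58 ± 0.14, Mertk at 1.43 ± 0.06, Itgam at -1.81 ± 0.16 and Adgre1 at -0.35 ± 0.09 (adjusted p at most 0.00113). The summed level of the list was 17960 to 23880 CPM at 16-20 h and 16294 to 26222 CPM at 58-62 h, so it overlapped. Most of that sum was Lyz2, at medians of 14093.5 and 14728.2 CPM, so the overlap says little of the other markers. Of 8 tested stromal markers 2 fell, again a share below that of all genes, and none rose. Col3a1 changed by -1.92 ± 0.71 and Col1a1 by -1.38 ± 0.55 (adjusted p of 0.0148 and 0.0236). The stromal markers summed to 35.6 to 211 CPM early and 2.58 to 94.2 CPM late. Of the scarce lists, 1 of 2 tested neutrophil markers fell and 1 rose, 4 of 5 dendritic cell markers rose, and 0 of 2 lymphocyte markers passed. The part of these shifts in the fall of the members was not tested.

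**Figure D4:**
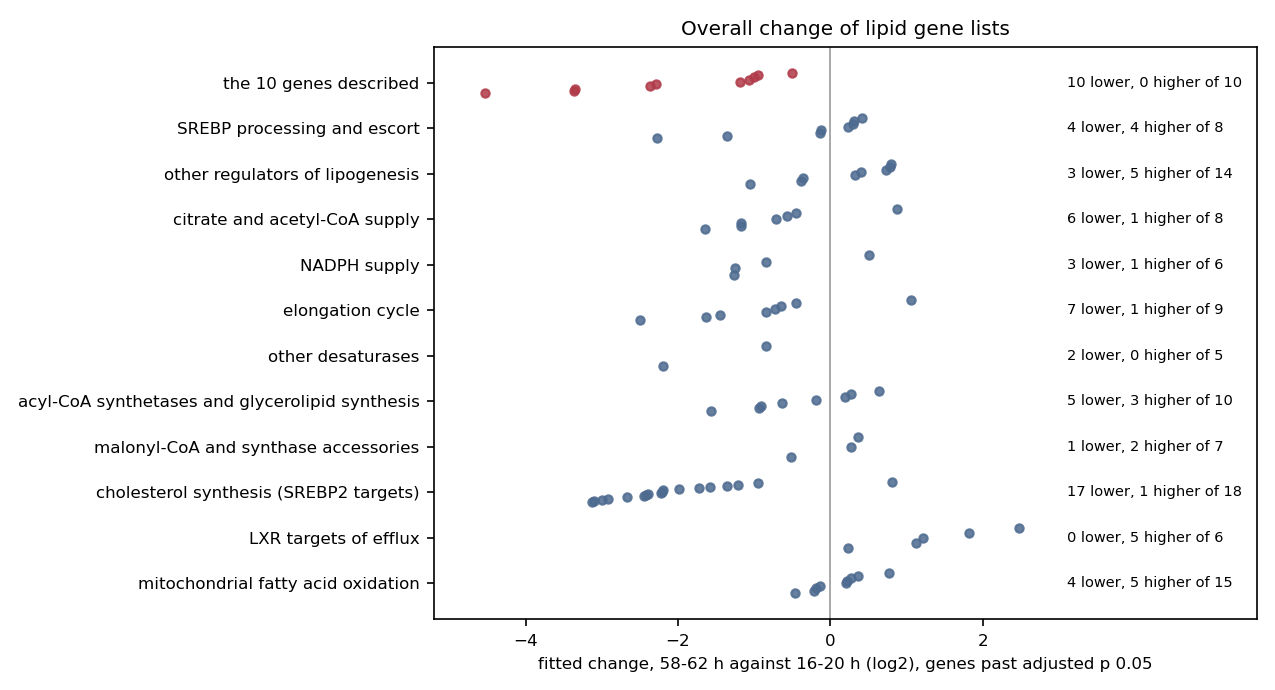
Fitted log2 change from 16-20 h to 58-62 h of each called gene in the 10 described and in 11 other lists, 1 point per gene, with the counts of genes lower and higher at an adjusted p of 0.05 on the right. All 10 described genes and 17 of 18 cholesterol genes lie below 0, and 5 of 6 efflux genes above it.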

How the data were processed

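Per the submitters' processing notes, reads were processed with DRAGEN and HTSeq on GRCm38 (mm10); no label gives versions or the strand setting. The deposited files hold raw read counts per gene, 1 per library, as the authors made them. The 5 lines naming no gene were left out (29.84-36.61% of reads without a feature, 19.55-32.97% not unique, 1.23-1.76% ambiguous). CPM was computed over assigned reads, with no pseudocount. Tests used edgeR 4.0.16 in R 4.3.3: TMM, filterByExpr by time point, a quasi-likelihood fit with 24 time levels over 72 libraries and no course term, and Benjamini-Hochberg adjustment over 17903 genes at 0.05. The fit was tested on simulated data. DESeq2 1.42.0, other scalings, no filter, a course block and left-out libraries were alternatives. Log2 CPM on the TMM scale used a prior count of 2. Python 3.11.15 was used for the rest. The members and lists were chosen with earlier results of these data known. All members are named, with up to 4 called genes per list by size of change and the closest genes by correlation; a few that this rule names are not reported here. No 2 libraries were identical. The labels tie the course numbers to no shared animal.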

Additional observations from a re-analysis of the deposited data

How the results depend on the processing

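The overall fall held for 10 of 10 members under every alternative tried, and none of 1460 values of single members compared across results and settings reversed (1374 kept their call or moved by less than the spread). Library size alone moved the median of all genes' overall change from 0.04 to -0.06 (log2). Leaving out 1 course at a time, members lower in the steps, in order, numbered 1 to 3, 5 to 6, 0 to 1, 0 to 4 and 0 to 6, and genes called 3585 to 4993, 3718 to 5719, 215 to 1353, 369 to 892, 70 to 582, 0 to 8 and 2 to 7. So left out, the 40 h contrast called 0 to 1 genes, the rhythm 233 to 321 and the course difference 0 to 7. In the step to 34-38 h, 2 members were lower without the libraries that stood apart. In that to 40-44 h it was 9 (and 2339 genes), and 6 without 40 h or 9 without the course 1 library at 40 h, chosen after seeing the data. In that to 46-50 h it was 2, 0 (161 genes) and 0. Genes called in the step to 52-56 h numbered 139, but 20 with library size alone, 68 with no filter, 355 with the course as a replicate block, 401 without 40 h, 411 without the course 1 library at 40 h and 424 with DESeq2. In the last step they were 8 without the libraries that stood apart and 11 with DESeq2, against 5. The 40 h contrast called 1 gene with no filter and 1 with DESeq2. The rhythm called 1 member, Scd1, with the block, DESeq2, and without 40 h, the course 1 library at 40 h or the libraries apart. It called 2104 genes with a quadratic drift, 34 with a spline and 2166 without 40 h, against 1354. The course difference called 2 genes without the libraries apart and 55 with DESeq2, against 5. The median midpoint was 30 h on the CPM scale, and the SD was highest at 40 h for 4 members with TMM. The cause was not tested. The labels tie the course numbers to no shared animal. Same-course correlations of deviations ran from -0.48 to 0.65, with medians of 0.09, 0.12 and 0.13 in courses 1 to 3, so not every pair was over 0.1 and the numbers were not taken to pair the samples. In the rhythm fit, the replicate block moved Scd1 to an adjusted p of 0.0386, and it called Srebf1 in the step to 46-50 h (0.0413).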

Other observations

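Within neighbouring gene pairs, the balance of transcripts shifted. The ratio of Fads2 to Fads1 counts went from 0.323 ± 0.033 at 16-20 h (SD, n = 3 courses) to 0.136 ± 0.0199 at 28-32 h and 0.0231 ± 0.0134 at 58-62 h. It fell between these windows in each of the 3 courses. The ratio of Scd1 to Scd2 counts rose from 0.0629 ± 0.0149 at 16-20 h to 0.136 ± 0.0243 at 28-32 h, again in each course, and was back at 0.0672 ± 0.0164 at 46-50 h and 0.0696 ± 0.0159 at 58-62 h. Reads that the Scd copies share were not counted as unique, and how this differs between them was not tested.

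The highest Scd1 library was at 40 h in course 1, 36 h in course 2 and 28 h in course 3. In courses 1 and 2 that was a single high library. It read 154 CPM in course 1, between 33.9 and 19.4 CPM 2 h before and after. In course 2 it read 88.9 CPM, between 24.2 and 26.6 CPM. Next highest were 122 CPM at 20 h in course 1 and 74.1 CPM at 26 h in course 2. The highest library of Fasn was at 20, 18 and 16 h.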
